A study of Mus musculus with 10 samples.

Results

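Genes of Kupffer cells and other macrophages were followed in whole livers of wild-type mice and of mice lacking both macroH2A1 and macroH2A2. The set was a list of 40 genes chosen by name, with earlier results of these data known. A gene was measured where a probe set, the group of short probes that reports 1 transcript, was annotated with that gene alone. This held for 38 of the 40, where 22180 genes in all had 1. Cd74 occurred only on a probe set shared with the microRNA gene Mir5107, and Nr1h2 was on no probe set named here. All 10 livers came from male 129/S6 (taconic) mice aged 2 months that had been fasted overnight for about 16 h, with 5 wild-type and 5 macroH2A1 macroH2A2 double knockout samples on 1 array each. All mice were kept on low-fat chow. MacroH2A proteins are histone H2A variants with a large non-histone domain. The sources used here do not give whether the wild-type mice were littermates of the knockouts or whether each sample was a separate animal. The tests therefore measure only the spread between these samples. Because whole liver was measured, a change in the number of macrophages, in RNA per macrophage or in other liver cells that make the same RNA cannot be told apart.

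Kupffer cells are the resident macrophages of the liver. They sit in the sinusoids, clear bacteria, immune complexes and worn-out cells from portal blood, and depend on the growth factor receptor Csf1r and on signals from neighbouring endothelial, stellate and hepatocyte cells. Monocytes that enter from blood can replace lost Kupffer cells, and macrophages that take up lipid in fatty or injured liver are known for another program that includes Trem2 and Gpnmb. The transcription factor PU.1, encoded by Spi1, binds purine-rich sites near many macrophage genes.

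The comparison asked how far the knockout livers differed from wild type in resident markers on one side and in monocyte, lysosomal and lipid-associated genes on the other. Levels are log2 expression values, so a difference of 1 is a 2-fold change, and differences are given as double knockout minus wild type. A gene was called at a limma adjusted p under 0.05, with Benjamini-Hochberg adjustment over all 25335 probe sets that carry a gene symbol. By this rule 0 of the 38 measured members were called, against 0.884% of all probe sets tested (224 of 25335, with 0.332% higher and 0.553% lower in double knockout livers). At an unadjusted p under 0.05 there were 13 members (34.2%), against 15.1% of all probe sets. Of these 13, 12 had the higher mean in double knockout livers (31.6% of members), against 7.52% of all probe sets, and Id3 had a lower one. Probe sets of olfactory receptors, which liver is not known to use, served as a guide to background, and their mean level itself differed between the groups, at 4.80 ± 0.03 in wild type and 4.87 ± 0.06 in double knockout (SD, n = 5 each). With this mean as a covariate, 5 members had an unadjusted p under 0.05, against 11.3% of all probe sets, 4 of them with the higher mean in double knockout livers, against 4.85% of all probe sets. In that fit 31 of 38 members had a positive difference, with a median of 0.11 over the members and -0.001 over all probe sets. Without the covariate, means were higher in double knockout livers for 30 of 38 members, against 48.5% of all probe sets. The median difference was 0.12 over the members and -0.003 over all probe sets. In 2 members, Ctss and C1qc, every double knockout array lay above every wild-type array (5.26% of members), against 1.75% of all probe sets. In 0 members was every double knockout array below every wild-type array, against 2.15% of all probe sets, so that the groups were apart in either direction for 2 of 38 members and for 3.90% of all probe sets.

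Promoters are shown for both of these genes, and for C1qb, which lies next to C1qc on chromosome 4 and overlapped between the groups. Of the 40 genes, 32 matched by symbol to a RefSeq promoter of the assembly GRCm38.p6, which runs from 250 bases before to 50 bases after the annotated start. Capitals mark GAGGAAGT, a core of the known PU.1 site, on either strand (read on the printed strand as ACTTCCTC where the match lies on the other). The windows are chr4:136886151-136886450, minus strand, for C1qb, chr4:136892865-136893164, minus strand, for C1qc, and chr3:95526536-95526835, plus strand, for Ctss.
C1qb: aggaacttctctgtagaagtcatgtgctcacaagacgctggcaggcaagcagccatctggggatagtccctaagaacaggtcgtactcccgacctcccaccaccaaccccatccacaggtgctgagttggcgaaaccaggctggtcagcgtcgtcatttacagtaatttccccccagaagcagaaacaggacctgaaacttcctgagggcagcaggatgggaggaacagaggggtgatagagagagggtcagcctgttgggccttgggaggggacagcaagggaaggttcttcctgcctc
C1qc: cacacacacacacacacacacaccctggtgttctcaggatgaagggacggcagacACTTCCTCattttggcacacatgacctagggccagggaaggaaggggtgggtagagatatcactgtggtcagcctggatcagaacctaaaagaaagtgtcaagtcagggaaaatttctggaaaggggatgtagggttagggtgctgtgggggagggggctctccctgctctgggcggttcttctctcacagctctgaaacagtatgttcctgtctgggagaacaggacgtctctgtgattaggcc
Ctss: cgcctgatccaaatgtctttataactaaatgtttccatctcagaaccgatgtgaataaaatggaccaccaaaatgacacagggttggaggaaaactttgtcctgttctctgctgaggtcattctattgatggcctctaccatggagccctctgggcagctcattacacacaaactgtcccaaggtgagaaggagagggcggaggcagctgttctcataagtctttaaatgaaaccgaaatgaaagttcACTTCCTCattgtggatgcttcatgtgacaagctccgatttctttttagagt
The match in C1qc began 195 bases before the start and that in Ctss 2 bases before it, both on the opposite strand, and C1qb had none in this window. Over the members, 3 of the 32 genes held GAGGAAGT in at least 1 promoter (Ly6c2, C1qc and Ctss), against 3.69% of all 27025 genes in the table. The shorter GAGGAA, which includes every GAGGAAGT, was in a promoter of 16 of 32 members and of 31.3% of all genes. C1qb and C1qc each held 1 match of GAGGAA, and Ctss held 2. Ly6c2, not shown, had 2 matches of GAGGAAGT in each of its windows, and its levels overlapped between the groups. A match of letters describes the window and does not show binding.

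Some facts of the arrays bear on all values. Array medians lay between 6.43 and 6.46, and correlations between arrays between 0.989 and 0.995. The Macroh2a1 probe set fell from 9.60 ± 0.07 to 9.11 ± 0.07 with the double knockout (SD, n = 5 each; limma adjusted p = 0.00128). The Macroh2a2 probe set was not called, at 6.32 ± 0.28 and 6.12 ± 0.19 (SD, n = 5 each; limma adjusted p = 0.514), and the sources used here do not say whether either probe set covers the deleted sequence. The means of 33 members lay above the background guide, the 95th percentile of the 1108 olfactory receptor probe sets, 6.54, and those of Aif1, Ms4a7, Ccr2, Itgam and Itgax lay below it. All 4 resident Kupffer cell markers and all 3 C1q chains were among the 33. Hepatocyte marker means differed little between arrays, from 13.40 to 13.45 in wild-type and from 13.39 to 13.43 in double knockout livers.

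**Figure D1:**
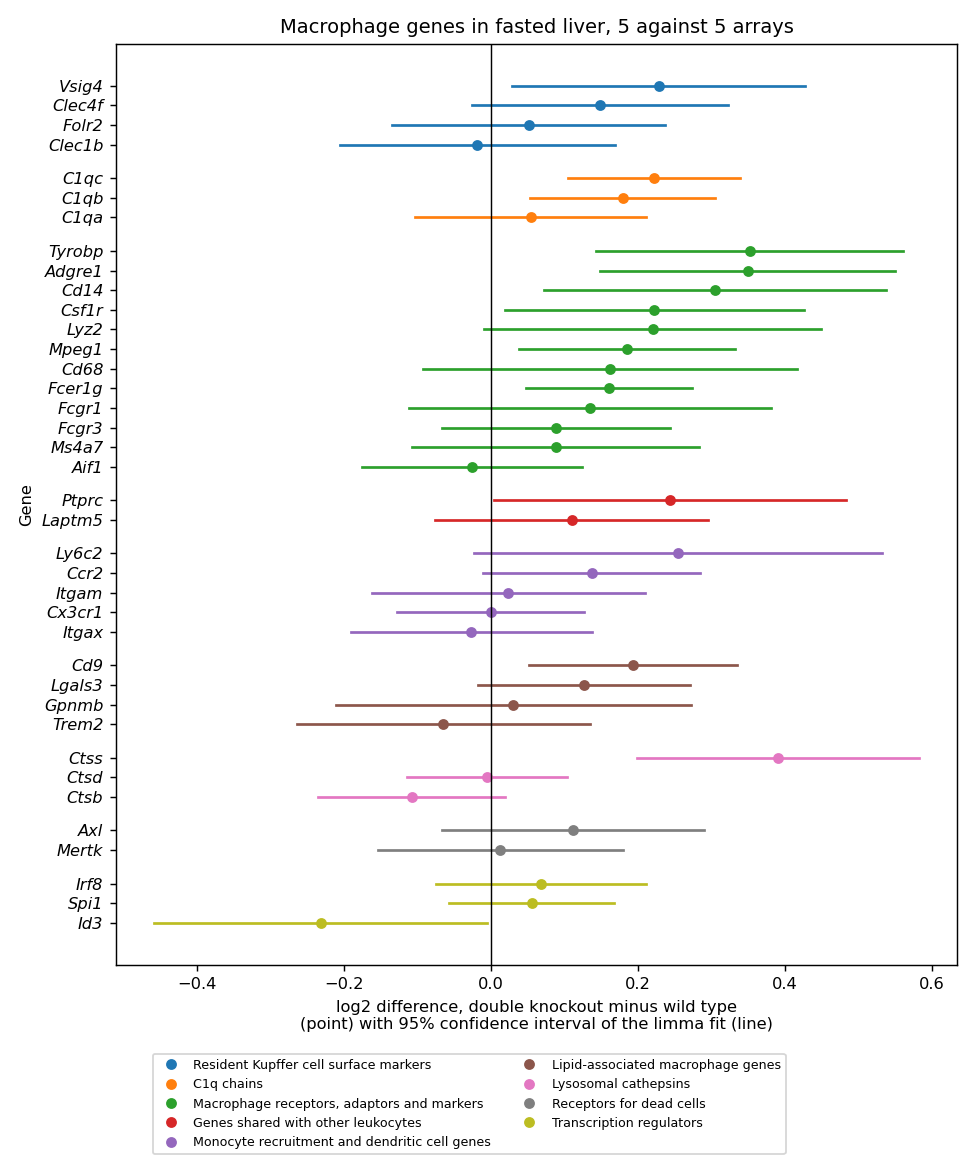
Log2 differences (double knockout minus wild type) of the 38 measured genes, by class, with the 95% confidence interval of the limma fit for each gene, not adjusted for the number of genes. Most points lie right of 0, with Ctss at 0.39 and Id3, at -0.23, at the ends.

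The 4 surface markers of resident Kupffer cells in the set had small differences. Clec4f is a lectin that in mice is found on Kupffer cells. Its levels were 9.66, 9.72, 9.95, 9.96 and 9.60 in wild-type livers and 9.87, 10.03, 10.01, 9.96 and 9.76 in double knockout livers, in order of replicate. Wild-type replicates 3 and 4 lay among the knockout values, and the difference of 0.15 (SE 0.08, limma adjusted p = 0.415) was within this spread. Vsig4 is a receptor for complement C3 fragments that captures blood-borne bacteria. It stood at 10.99, 11.20, 11.37, 11.54 and 11.23 in wild type and at 11.42, 11.60, 11.46, 11.62 and 11.37 in double knockout livers. Only wild-type replicates 3 and 4 reached the lowest knockout array, and the difference was 0.23 (SE 0.09, limma adjusted p = 0.261).

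Clec1b and Folr2 overlapped more fully. Clec1b, the podoplanin receptor that platelets also carry, had levels of 7.22, 7.15, 7.22, 7.61 and 7.19 in wild-type and 7.22, 7.24, 7.45, 7.16 and 7.23 in double knockout livers, a difference of -0.02 (SE 0.09, 95% confidence interval -0.21 to 0.17). Its highest value was that of wild-type replicate 4, without which the difference was 0.06. A second probe set, shared with Clec9a, had a difference of -0.12. Folr2, a folate receptor of tissue macrophages, stood at 9.17, 9.14, 9.35, 9.04 and 9.10 in wild type and at 9.14, 9.52, 9.16, 9.18 and 9.06 in double knockout livers. Here double knockout replicate 2 alone lay above the wild-type arrays, and the difference of 0.05 (SE 0.09, 95% confidence interval -0.13 to 0.24) turned to -0.03 without it.

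The chains of C1q, the recognition unit that starts the classical complement pathway, are made in liver chiefly by macrophages, and their genes C1qb, C1qc and C1qa are neighbours. For C1qc the wild-type values were 8.22, 8.26, 8.32, 8.48 and 8.29 and the double knockout values 8.49, 8.63, 8.56, 8.50 and 8.51. The groups did not overlap, although wild-type replicate 4 lay just under the lowest knockout array, and the means of 8.32 ± 0.10 and 8.54 ± 0.06 (SD, n = 5 each) differed by 0.22 (SE 0.05, limma adjusted p = 0.0796). C1qb had 10.73, 10.73, 10.76, 10.82 and 10.74 in wild-type and 10.91, 11.12, 10.90, 10.97 and 10.78 in double knockout livers. Only double knockout replicate 5 fell within the wild-type range, and the difference was 0.18 (SE 0.06, limma adjusted p = 0.168). C1qa, at 8.12, 8.03, 8.19, 8.27 and 8.18 against 8.00, 8.41, 8.18, 8.20 and 8.27, had knockout arrays on both sides of the wild-type range, with replicates 2 and 5 above it and replicate 1 below it. Its difference was 0.05 (SE 0.07, limma adjusted p = 0.797), and 0.004 without double knockout replicate 2.

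Among 12 receptors, adaptors and general macrophage markers, 11 had the higher mean in the knockout group, the median difference was 0.17, and 6 had an unadjusted p under 0.05. Adgre1 encodes F4/80, the classical surface marker of mouse macrophages. Its wild-type values were 8.45, 8.34, 8.53, 8.84 and 8.49, and its double knockout values were 8.74, 9.12, 8.81, 8.89 and 8.83. Wild-type replicate 4 was the 1 wild-type array within the knockout range, and the difference was 0.35, or 1.27-fold (SE 0.09, limma adjusted p = 0.104). Without that array the difference was 0.43 and the gene was called (limma adjusted p = 0.0372), against 131 of 25335 probe sets.

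Tyrobp and Fcer1g encode the signalling adaptors that pair with activating receptors such as Trem2 and the Fc receptors. Tyrobp stood at 9.05, 9.26, 9.26, 9.63 and 9.45 in wild-type and at 9.67, 9.85, 9.58, 9.74 and 9.58 in double knockout livers. Again wild-type replicate 4 was the exception, above double knockout replicates 3 and 5, and the difference was 0.35, or 1.28-fold (SE 0.10, limma adjusted p = 0.113). Fcer1g had 10.29, 10.19, 10.25, 10.18 and 10.24 in wild-type and 10.40, 10.50, 10.39, 10.43 and 10.23 in double knockout livers. All knockout arrays but replicate 5 lay above the wild-type range, and the difference was 0.16 (SE 0.05, limma adjusted p = 0.17). The Fc receptors had smaller differences: Fcgr1, the high-affinity IgG receptor, had 0.13 (SE 0.11) and Fcgr3, a low-affinity IgG receptor, had 0.09 (SE 0.07), with limma adjusted p of 0.637 and 0.616. The Fcgr1 difference was 0.06 without double knockout replicate 2, and that of Fcgr3 ran from 0.05 to 0.14 when wild-type replicate 1 or 4 was left out. Fcgr3 resembles other Fc receptor genes in sequence, and how far its probe set tells them apart was not tested.

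Cd14, the co-receptor for bacterial lipopolysaccharide, had levels of 6.41, 6.46, 6.53, 6.55 and 7.04 in wild-type livers and 6.73, 6.85, 6.96, 6.96 and 7.01 in double knockout livers. The fifth wild-type array was the highest of all 10, and the other wild-type arrays lay below every knockout array. The difference was 0.31 (SE 0.11, limma adjusted p = 0.202), and without wild-type replicate 5 it was 0.42 and called (limma adjusted p = 0.0175). In the fit without that array 220 of 25335 probe sets were called. Csf1r, the receptor for the macrophage growth factors CSF1 and IL-34, had 9.20, 9.18, 9.32, 9.67 and 9.27 in wild-type and 9.43, 9.76, 9.58, 9.56 and 9.43 in double knockout livers. Wild-type replicate 4 was above all knockout arrays but replicate 2, and the difference was 0.22 (SE 0.09, limma adjusted p = 0.283). Mpeg1, a pore-forming protein of phagosomes, stood at 8.02, 8.07, 8.17, 8.23 and 8.04 against 8.26, 8.53, 8.24, 8.26 and 8.18. Its groups overlapped only through wild-type replicate 4 and double knockout replicate 5, with a difference of 0.19 (SE 0.07, limma adjusted p = 0.22).

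The remaining general markers had limma adjusted p between 0.352 and 0.911. Lyz2, lysozyme of myeloid cells, had a difference of 0.22 (SE 0.11), with double knockout replicates 2 and 4, at 9.94 and 10.11, above all other arrays, which lay at 9.41 to 9.66, and it was 0.13 without replicate 4. Cd68, a glycoprotein of macrophage lysosomes, had 0.16 (SE 0.12), with 0.09 without double knockout replicate 2 and 0.26 without wild-type replicate 4. Ms4a7, a membrane protein of macrophages, had 0.09 (SE 0.09), and 0.01 without double knockout replicate 4. Aif1, which encodes the actin-binding protein IBA1, had -0.03 (SE 0.07), and 0.01 without wild-type replicate 4. The last 2 genes had means below the background guide.

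**Figure D2:**
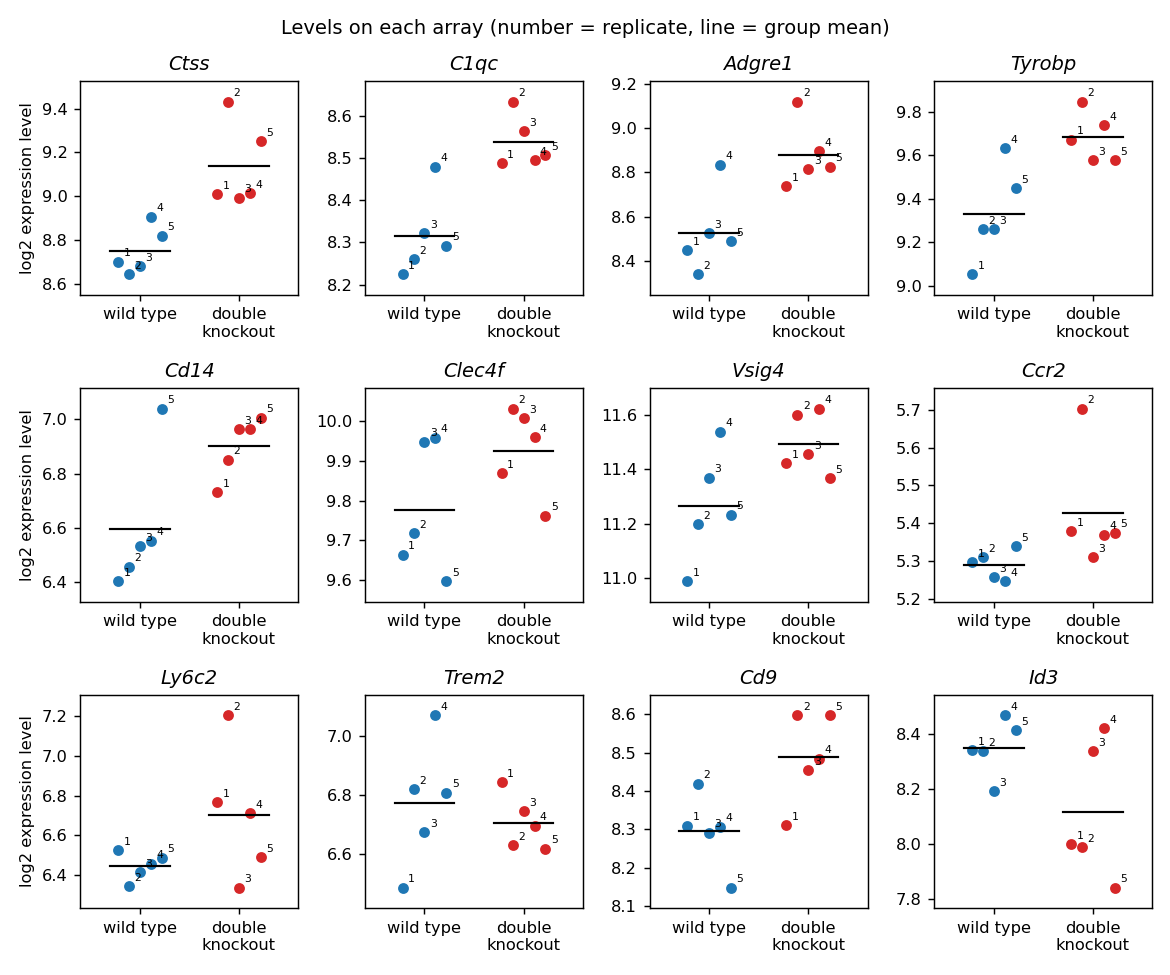
Log2 expression levels of 12 genes on each of the 10 arrays, with the replicate number at each point and a line at the group mean; each panel has its own scale. Ctss and C1qc do not overlap between groups, wild-type replicate 4 is high for Adgre1 and Tyrobp, and double knockout replicate 2 is the highest array for Ccr2 and Ly6c2.

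Ptprc, the phosphatase CD45 of all leukocytes, had 7.16, 7.15, 7.20, 7.31 and 7.45 in wild-type and 7.28, 7.88, 7.24, 7.57 and 7.51 in double knockout livers. Double knockout replicate 2 stood highest, and the difference of 0.24 (SE 0.11, limma adjusted p = 0.321) was 0.15 without it. Laptm5, a lysosomal membrane protein of blood cells, had 0.11 (SE 0.09), and 0.03 without that array. On the shared probe set of Cd74, the invariant chain of MHC class II, and Mir5107, the difference was 0.06 (SE 0.12).

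Genes used to recognise monocytes that enter the liver, and dendritic cells, had a median difference of 0.02, and 0 of 5 had an unadjusted p under 0.05. Ccr2, the chemokine receptor by which monocytes leave the marrow, stood at 5.30, 5.31, 5.26, 5.25 and 5.34 in wild-type and at 5.38, 5.70, 5.31, 5.37 and 5.37 in double knockout livers. These values lay below the background guide, with double knockout replicate 2 apart from the rest, and the difference was 0.14 (SE 0.07, limma adjusted p = 0.37), or 0.07 without that array. Ly6c2, a surface antigen of inflammatory monocytes, had 6.53, 6.35, 6.42, 6.46 and 6.49 in wild-type and 6.77, 7.20, 6.34, 6.71 and 6.49 in double knockout livers. Its difference of 0.25 (SE 0.13, limma adjusted p = 0.375) came with the widest knockout spread among these 5 genes, 0.33 (SD, n = 5), and was 0.13 without double knockout replicate 2. Ly6c2 has a near-identical neighbour family, and how far its probe set tells the copies apart was not tested.

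Cx3cr1, the fractalkine receptor, had 7.71, 7.76, 7.63, 7.54 and 7.72 in wild-type and 7.53, 7.74, 7.72, 7.60 and 7.76 in double knockout livers, a difference of -0.001 (95% confidence interval -0.13 to 0.13). The integrin chains Itgam and Itgax, whose genes are neighbours, were below the background guide. Itgam had 6.40, 6.23, 6.19, 6.27 and 6.34 in wild type against 6.24, 6.50, 5.999, 6.42 and 6.38, a difference of 0.02 (SE 0.09). Itgax had 5.96, 6.33, 6.16, 5.999 and 6.27 in wild type against 6.14, 6.24, 6.03, 6.13 and 6.03, a difference of -0.03 (SE 0.08). The groups overlapped for these 3 genes, and each difference changed sign in some fits that left out 1 array.

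Genes of lipid-associated macrophages did not share a direction. Trem2, a receptor for lipids and lipoproteins, had 6.49, 6.82, 6.67, 7.07 and 6.81 in wild-type and 6.84, 6.63, 6.75, 6.70 and 6.62 in double knockout livers, a difference of -0.06 (SE 0.09, 95% confidence interval -0.26 to 0.13). Gpnmb, a glycoprotein induced in lipid-laden macrophages, had 6.33, 6.47, 6.60, 6.66 and 6.85 against 6.88, 6.66, 6.46, 6.35 and 6.71, a difference of 0.03 (SE 0.11). Neither gene separated the groups, and the differences turned to 0.01 for Trem2 without wild-type replicate 4 and to -0.04 for Gpnmb without double knockout replicate 1. Lgals3, galectin-3, had 7.74, 7.88, 7.89, 7.74 and 7.85 against 7.84, 8.14, 7.83, 7.90 and 8.05, with double knockout replicates 2 and 5 well above the rest and a difference of 0.13 (SE 0.07, limma adjusted p = 0.398), or 0.08 without replicate 2. Cd9, a tetraspanin found on many cell types, had 8.31, 8.42, 8.29, 8.31 and 8.15 against 8.31, 8.60, 8.45, 8.48 and 8.60. Of the knockout arrays only replicate 1 lay within the wild-type range, and the difference was 0.19 (SE 0.06, limma adjusted p = 0.182). Its second probe set had a difference of 0.09 (SE 0.04, limma adjusted p = 0.318) and a mean below the background guide.

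Of 3 lysosomal cathepsins, the one typical of antigen-presenting cells had the larger difference, and the other two, which most cells make, had small ones. Ctss, cathepsin S, processes the MHC class II invariant chain. Its levels were 8.70, 8.64, 8.68, 8.91 and 8.82 in wild-type livers and 9.01, 9.43, 8.99, 9.01 and 9.25 in double knockout livers. The groups did not overlap, with means of 8.75 ± 0.11 and 9.14 ± 0.19 (SD, n = 5 each). The difference of 0.39, or 1.31-fold (SE 0.09, limma adjusted p = 0.0658), was the largest of the 38 members and was not called. It was 0.32 without double knockout replicate 2 (limma adjusted p = 0.0854). Ctsb, cathepsin B, had 12.52, 12.48, 12.41, 12.65 and 12.42 against 12.50, 12.37, 12.41, 12.40 and 12.25, a difference of -0.11 (SE 0.06, limma adjusted p = 0.417). Ctsd, cathepsin D, had a difference of -0.01 (95% confidence interval -0.11 to 0.10), and its groups overlapped.

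Axl and Mertk, receptor kinases that bind dying cells through bridging proteins, had differences of 0.11 (SE 0.08) and 0.01 (SE 0.08), with limma adjusted p of 0.578 and 0.963. For both genes double knockout replicate 2 was the highest array, and without it the differences were 0.06 and -0.05.

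Transcription regulators of macrophages differed in direction. Spi1 (PU.1) had 0.06 (SE 0.05) and Irf8, an interferon regulatory factor of monocytes and macrophages, had 0.07 (SE 0.07), with 0.04 on its second probe set; the limma adjusted p of the main probe sets were 0.68 and 0.696. Without double knockout replicate 2 they had 0.03 and 0.02. Id3, an inhibitor of basic helix-loop-helix factors that Kupffer cells need and that other liver cells also make, was the 1 member of lower mean at an unadjusted p under 0.05. It stood at 8.34, 8.34, 8.19, 8.47 and 8.41 in wild-type and at 8.00, 7.99, 8.34, 8.42 and 7.84 in double knockout livers. Double knockout replicates 1, 2 and 5 lay below all wild-type arrays, while replicates 3 and 4 lay within their range, and the difference was -0.23 (SE 0.10, limma adjusted p = 0.318).

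**Figure D3:**
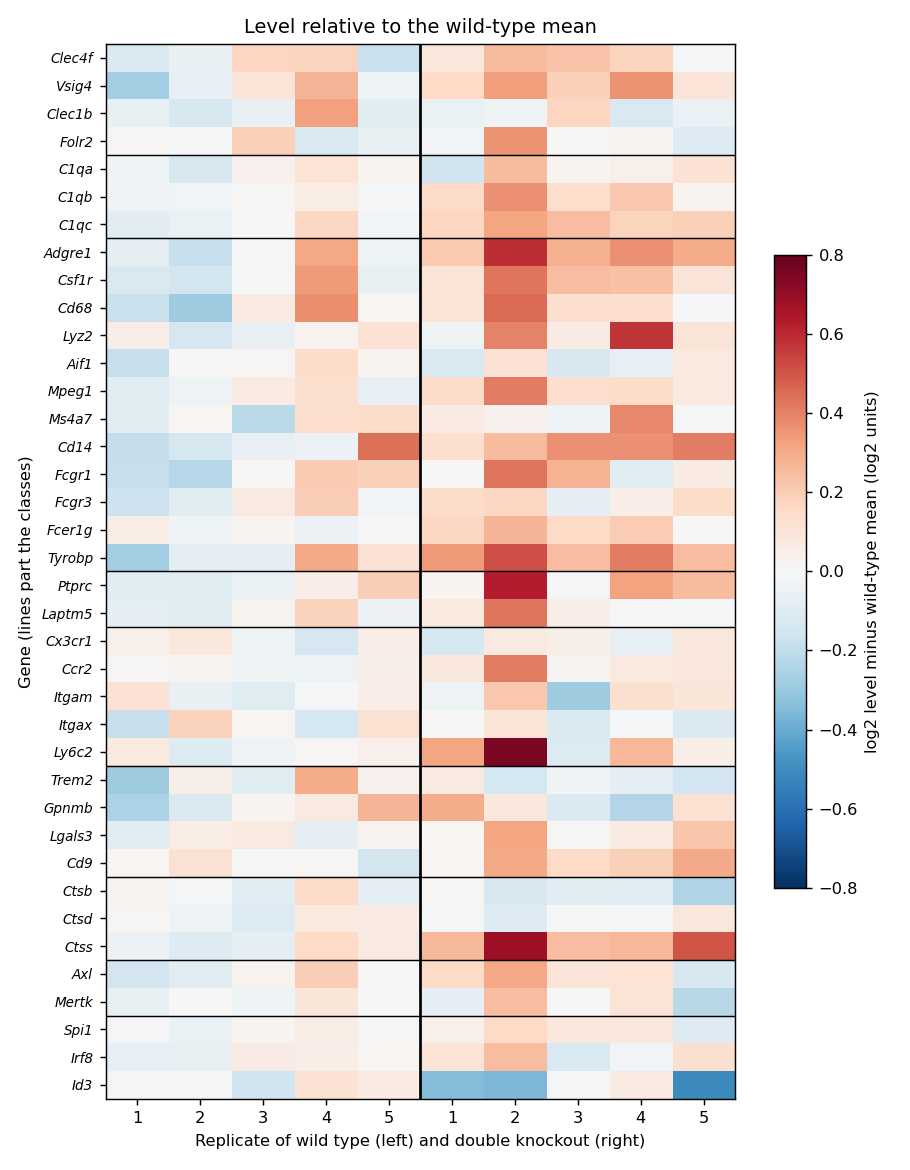
Log2 level of the 38 genes on each array minus the mean of the 5 wild-type arrays, from blue (lower) to red (higher), with lines between classes and between groups. Double knockout replicate 2 is red for most genes, and wild-type replicates 1 and 2 are mostly blue.

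The arrays did not contribute equally. Double knockout replicate 2 was the highest of the 10 arrays for 23 of 38 members (60.5%), against 11.2% of all probe sets, and it was among the 3 highest for 31. The median deviation of the members from their wild-type means was 0.29 on that array and 0.05 to 0.11 on the other 4 knockout arrays. Among wild-type arrays, replicate 4 had a median deviation of 0.11 and replicates 1 and 2 had -0.08 and -0.06. Wild-type replicate 1 was the lowest array for 13 members and replicate 2 for 9. Without double knockout replicate 2, the median difference over the members was 0.07 instead of 0.12, and 28 of 38 had higher means. In that fit 9 members had an unadjusted p under 0.05, against 13.9% of all probe sets. Without wild-type replicate 4 the median was 0.14, with 34 of 38 higher and 2 called, Adgre1 and C1qc, against 131 of 25335 probe sets. Without both arrays it was 0.11, with 30 of 38 higher and 1 called, Adgre1, against 108 of 25335 probe sets.

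Class medians were also taken without double knockout replicate 2. The C1q chains had 0.13 without it and 0.18 with it, and the receptors, adaptors and markers 0.13 and 0.17. The resident surface markers had 0.05 without it and 0.10 with it, the monocyte and dendritic cell genes -0.02 and 0.02, the lipid-associated genes 0.05 and 0.08, and the leukocyte genes 0.09 and 0.18. The cathepsins had 0.02 without it and -0.01 with it, the receptors for dead cells 0.01 and 0.06, and the transcription regulators 0.02 and 0.06. These classes hold 2 to 12 measured genes, and differences between their medians were not tested.

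**Figure D4:**
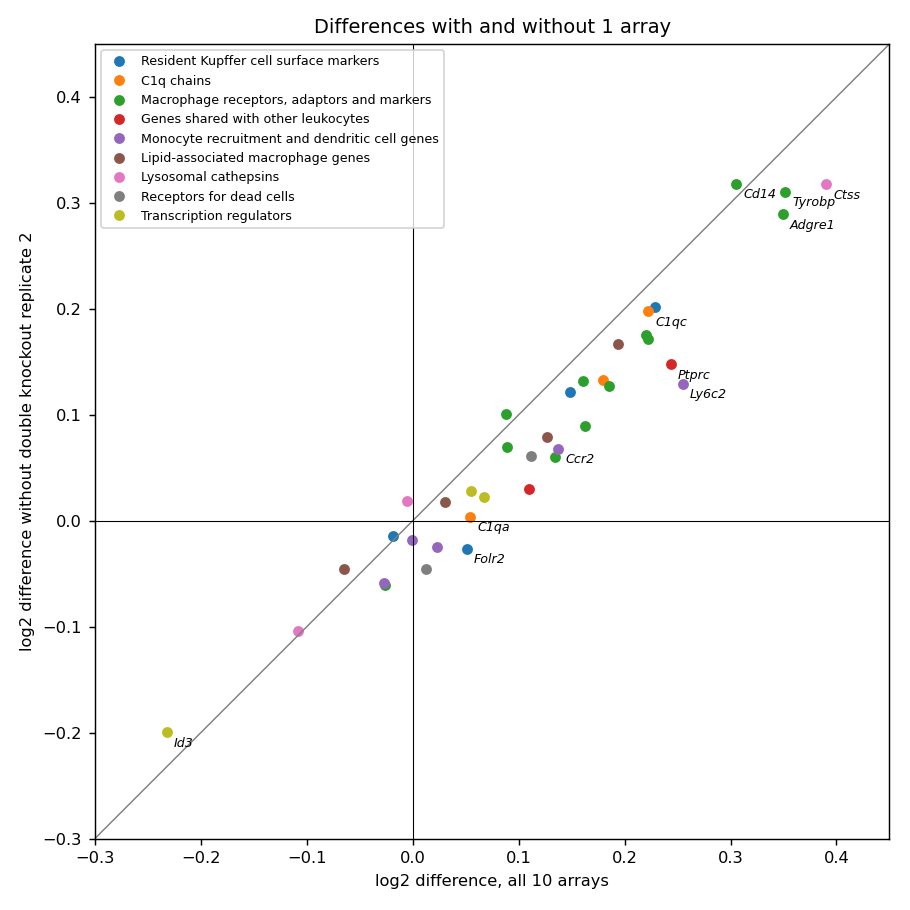
Log2 difference of each of the 38 genes without double knockout replicate 2 (vertical) against that with all 10 arrays (horizontal), coloured by class, with a grey line where both are equal. Most points lie below the line; Ctss, Tyrobp, Adgre1 and Cd14 stay near 0.3.

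Genes of other cells varied over the same arrays. T and NK cell markers had their highest array mean on double knockout replicate 2, 6.20 against 5.93 to 6.03 on the other 9 arrays, and it was the highest array for 8 of 11; only 3 of the 11 lay above the background guide. MHC class II genes also peaked there, at 9.00 against 8.32 to 8.80, highest for 5 of 6. Markers of acinar cells of the pancreas, an organ next to the liver, were high on wild-type replicates 4 and 5, at 9.40 and 10.45, and on double knockout replicates 1 and 2, at 8.38 and 8.59, against 5.94 to 6.64 on the others. Their part in the macrophage values was not tested beyond these fits: without those 4 arrays the median difference over the members was 0.10, and Cd14 was called with 0.51 (limma adjusted p = 0.0283). In that fit 68 of 25335 probe sets were called. With the pancreas mean as a covariate, Tyrobp and Ctss were called, with 0.39 and 0.41 (limma adjusted p = 0.0306 and 0.045), against 218 of 25335 probe sets.

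Further genes of the pathway were read from lists. Among 9 other Kupffer cell receptors and markers, all 9 had higher means, with a median of 0.19 and the highest level on double knockout replicate 2 for 6, and 2 rose: the haemoglobin scavenger receptor Cd163, by 0.44 (SE 0.08, limma adjusted p = 0.0284), and the bacterial scavenger receptor Marco, by 0.61 (SE 0.13, limma adjusted p = 0.0475). At an unadjusted p under 0.05 there were 4 of the 9, against 15.1% of all probe sets: Cd163, Marco, Timd4 and Siglec1. Timd4 had 0.22 (SE 0.07, limma adjusted p = 0.149) and Siglec1 had 0.37 (SE 0.11, limma adjusted p = 0.143). Every double knockout array lay above every wild-type array for 2 of the 9, Cd163 and Timd4, against 1.75% of all probe sets. The Cd163 call was lost without wild-type replicate 2 or double knockout replicate 2, 3 or 4 (adjusted p up to 0.087). That of Marco was lost in 8 of 10 fits that left out an array, all but those without wild-type replicate 4 or double knockout replicate 5 (adjusted p up to 0.118). Among niche and growth factor ligands, 0 of 7 were called in limma, and the median was -0.03. Of the 7, 1 had an unadjusted p under 0.05 (Csf1), against 15.1% of all probe sets. Csf1, the ligand of Csf1r, had 7.85, 7.85, 7.89, 7.90 and 7.79 in wild-type and 7.58, 7.75, 7.57, 7.57 and 7.27 in double knockout livers. All knockout arrays lay below the wild-type arrays, as they did for 2.15% of all probe sets. The Csf1 difference was -0.31 (SE 0.07, limma adjusted p = 0.0751), and -0.36 and called without double knockout replicate 2 (limma adjusted p = 0.0455). The notch ligand Dll4 had -0.14 (limma adjusted p = 0.352).

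Of 8 other macrophage transcription factors 0 were called in limma, with a median of 0.02. Of the 8, 2 had an unadjusted p under 0.05 (Id1 and Spic), against 15.1% of all probe sets. Id1, of the same family as Id3, had -0.23 (limma adjusted p = 0.165), and Spic, known from red pulp macrophages and Kupffer cells, had 0.29 (limma adjusted p = 0.188). The LXR target genes, which Nr1h2 and its relative Nr1h3 control, had 0 of 4 called and a median of -0.07 (Lpcat3 -0.12, Abca1 -0.09). Of the 4, 1 had an unadjusted p under 0.05, against 15.1% of all probe sets. Monocyte chemokines and other monocyte genes had 0 of 9 called and a median of 0.00, with 0 at an unadjusted p under 0.05 (Ccl7 -0.14, Vcan 0.07), and 6 of the 9 lay below the background guide. MHC class II genes had 0 of 6 called and 0 at an unadjusted p under 0.05, with a median of -0.08 (H2-DMa 0.10, H2-Eb1 -0.14). Fc receptor and ITAM signalling genes had 0 of 9 called, 0 at an unadjusted p under 0.05 and 8 of 9 higher means, with a median of 0.04 (Btk 0.11, Hcst 0.08).

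Among 8 other lipid-associated genes the median was 0.05 and 2 rose. Lipoprotein lipase, Lpl, rose by 1.13 (SE 0.15, limma adjusted p = 0.00686) and the fatty acid-binding protein Fabp5 by 1.84 (SE 0.30, limma adjusted p = 0.0209), with the Fabp5 call lost without wild-type replicate 2 or double knockout replicate 5. Lpl had 2 probe sets of its own and Fabp5 had 4, and only the one of highest mean is given for each. Which liver cells held these RNAs was not tested. Other lysosomal genes had 10 of 13 lower means and 3 higher ones, against 48.5% higher over all probe sets. Of the 13, 0 were called, 3 had an unadjusted p under 0.05, against 15.1% of all probe sets, and the median was -0.06 (Ctsh -0.16, Lamp1 -0.09). Every double knockout array lay below every wild-type array for 2 of the 13, Lamp1 and Ctsa, against 2.15% of all probe sets. Of 8 other genes of dead cell uptake, Dock1, which activates the GTPase Rac, rose by 0.27 (SE 0.05, limma adjusted p = 0.0232; call lost without double knockout replicate 4 or either of wild-type replicates 2 and 3), and the median was -0.002. The median over all probe sets was -0.003.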

How the data were processed

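Liver RNA of 5 wild-type and 5 double knockout samples had been hybridised to 1 array each. Per the labels' protocols, RNA was extracted with Trizol and labelled with the Ambion WT Expression Kit. The authors deposited log2 levels, 1 for each probe set and array. Per the submitters' processing notes, these came from Affymetrix Expression Console; its version, summarisation and normalization were not given in the sources used here. Scanner files, detection calls and scan dates were not analysed here, and the number of arrays limits the precision.

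Of 41345 rows, 23521 carried 1 gene symbol in the platform annotation, 1814 several and 16010 none. The 25335 rows with a symbol were fitted in limma 3.58.1 under R 4.3.3 (lmFit, eBayes, two-sided), with genotype as the only term and no filter or further normalization. A gene was represented by its own row of highest mean. Of the genes outside the set, those called, up to 4 per list by lowest p, and otherwise up to 2 of lowest p were named. Timd4 and Siglec1 were named in addition. The members, lists, classes and tests were chosen with earlier results of these data known. No p was adjusted over the members alone. Alternatives covered the prior, weights, normalization, filter, rows tested, covariates, replicate number and arrays left out; leaving out wild-type replicate 4 together with double knockout replicate 2 was added after the data were seen.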

Additional observations from a re-analysis of the deposited data

Results flagged for a closer look

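In 8 of 76 groups of 5 arrays, 1 for each member and genotype, a single array stood far from the other 4. By chance about 1 in 20 independent groups would. The 76 groups share the same 10 arrays and are not independent, so the 2 rates cannot be compared as a test. Double knockout replicate 2 stood high in 4 of the 8. It had 9.52 for Folr2 against 9.06 to 9.18 on the other knockout arrays, 8.53 for Mpeg1 against 8.18 to 8.26, 7.27 for Laptm5 against 6.83 to 6.92, and 5.70 for Ccr2 against 5.31 to 5.38. Wild-type replicate 4 stood high for Clec1b, with 7.61 against 7.15 to 7.22, and for Csf1r, with 9.67 against 9.18 to 9.32. Wild-type replicate 5 had 7.04 for Cd14 against 6.41 to 6.55, and double knockout replicate 4 had 5.66 for Ms4a7 against 5.24 to 5.34.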

How the results depend on the processing

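Cd163, Marco, Lpl, Fabp5 and Dock1, called outside the set, kept their direction in every alternative run. With 0 members called, no member could count as a reversed call. Some uncalled members changed sign when 1 array was left out. Among them, Cx3cr1 kept its sign in 5 of 10 such fits, and Itgam, Ctsd and Mertk in 7. Against 0 members called, 2 were called with only probe sets above the background guide tested (Ctss and C1qc, adjusted p = 0.0434 and 0.0496 in limma), 2 at an adjusted p under 0.1, 2 with the pancreas covariate, 1 without the 4 arrays high in pancreas markers, 1 without the highest array of each group, and 0 to 2 when 1 array was left out. With 0 called in limma, an intensity trend, the robust option and array weights also called 0, with lowest adjusted p of 0.0544, 0.0561 and 0.0528, all for Ctss. With only rows of exactly 1 symbol tested, the lowest limma adjusted p was 0.0556, also for Ctss, with 0 members called. Centring each array on its median gave 0.0615 for Ctss, and a second quantile normalization gave 0.064 for C1qc. Some other alternatives that called 0 members lay further from the threshold. The lowest adjusted p in limma was 0.132 with all rows tested and 0.135 with the replicate number as a block, both for Ctss. It was 0.289, for Tyrobp, with the olfactory receptor mean as a covariate. Higher means were found for 28 to 34 of 38 members when 1 array was left out. Over all probe sets, 224 calls became 377 above the background guide, 75 with all rows tested, 585 at an adjusted p under 0.1, 53 with the olfactory receptor mean as a covariate, 68 without the arrays high in pancreas markers, 613 without replicate 1 of both groups, 108 without the highest array of each group, and 64 to 253 when 1 array was left out. With the pancreas covariate there were 218. The share of higher calls was 84 of 224, but 126 of 222 without wild-type replicate 1, 133 of 253 without double knockout replicate 1 and 460 of 613 without replicate 1 of both groups. The median of the monocyte and dendritic cell genes was 0.13 above the background guide, where 2 of the 5 genes are left, and that of the cathepsins 0.073 without the arrays high in pancreas markers. Same-numbered arrays did not pair: the correlation of their deviations from the group means ran from -0.48 to 0.13 and passed 0.1 in 1 of 5 pairs, and 0 of 5 wild-type arrays correlated best with their own number. With the replicate number as a block, 76 probe sets and 0 members were called. The causes of these shifts were not tested where the construction of a fit does not show them.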

Other observations

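Of the markers of other cells given here 0 were called in limma, and at most 2 per list had an unadjusted p under 0.05. Siglech, a marker of plasmacytoid dendritic cells, had 6.56, 6.74, 6.48, 6.57 and 6.60 in wild-type and 6.98, 7.16, 6.67, 6.99 and 6.83 in double knockout livers. All knockout arrays but replicate 3 lay above the wild-type range, and the difference was 0.34 (SE 0.08, limma adjusted p = 0.0847); without replicate 3 it was called (limma adjusted p = 0.0391). Over 8 dendritic cell markers the median was 0.05, and 6 had higher means. Markers of B and plasma cells had lower means for 6 of 7, with a median of -0.10, and wild-type replicate 4 was the highest array for 4 of the 7. Cd79b, part of the B cell receptor, had 7.16 ± 0.21 in wild type against 6.88 ± 0.17 (SD, n = 5 each), a difference of -0.28 (limma adjusted p = 0.223). Of 11 neutrophil markers 5 had higher means (median -0.01, S100a9 0.13). Only 3 of these 11 lay above the background guide, and S100a9 lay below it. Of 5 platelet markers 4 had higher means (median 0.01, Treml1 -0.06). Of 9 hepatocyte markers 3 had higher means (median -0.004, Serpina1a -0.11), and of 11 pancreatic acinar markers 3 had (median -0.50, Try5 0.12), with wild-type replicate 5 the highest array for 10 of the 11. The median of 11 T and NK cell markers was 0.05, with Ccl5 at 0.28 (limma adjusted p = 0.223). Endothelial markers had a median of 0.05 over 10 genes (Cdh5 0.13), and stellate cell and fibroblast markers -0.01 over 10 (Reln -0.17). Erythroid markers had -0.04 over 5, 2 of them above the background guide (Tfrc -0.26). Dividing cell markers had 0.12 over 6, 3 of them above the background guide (Top2a 0.20).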
